A study of Mus musculus with 4 samples.

Results

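The 10 genes described here were the immunoglobulin heavy chain constant genes Ighm, Ighd, Igha, Ighg1, Ighg2b and Ighg2c, the light chain constant genes Igkc, Iglc1 and Iglc2, and Jchain, of the 32285 genes in the count matrices. They were chosen by symbol after their measured values in these same cells had been seen, so their levels are given as a description and without a test. The data were counts of unique molecular identifiers (UMIs, each standing for 1 captured RNA molecule) per gene and cell from CITE-seq, in which RNA and an oligonucleotide-tagged CD24 antibody are read from the same cell. Cells came from femur and tibia of untreated young and old INK-ATTAC mice, with 1 library per age. How many animals gave cells to each library is not given in the sources used here. The study's young and old cohorts were 6 and 24 months of age, and the labels of these libraries say young and old. For the untreated mice of its single-cell work the methods give both sexes and a range of ages that starts at 24 months, so the exact age of the old mice is not known here. INK-ATTAC mice carry a transgene, driven by a p16 promoter fragment, that kills the cells expressing it once a drug is given, and the drug was not given here. Marrow and digested bone were pooled and red cells lysed. Cells with blood lineage surface proteins (among them CD45R, which B cells carry) were depleted on magnetic beads, and live CD45-negative cells were sorted, so B cells were selected against, and their numbers describe the sort and not the marrow.

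An antibody is built of heavy and light chains, and each chain joins a variable domain, which binds antigen, to a constant domain. The constant gene of the heavy chain sets the isotype: Ighm gives IgM and Ighd gives IgD, which naive B cells carry on the surface, while Ighg1, Ighg2b, Ighg2c and Igha give isotypes reached by class switching. The light chain is either kappa, from Igkc, or lambda, from Iglc1 or Iglc2, and a B cell normally uses only one light chain. Jchain encodes the joining chain that links IgM and IgA into polymers. In the marrow, B cell precursors rearrange the heavy chain first and the light chain later, and plasma cells, which secrete antibody, devote much of their RNA to immunoglobulin.

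On the mouse build the authors used, the 6 heavy chain genes lie on chromosome 12, with Igha at chr12:113256204-113260236, Ighg2c at chr12:113287389-113288932, Ighg2b at chr12:113304314-113307933, Ighg1 at chr12:113326541-113330523, Ighd at chr12:113407535-113416324 and Ighm at chr12:113418826-113422730. Igkc lies on chromosome 6 at chr6:70726435-70726754, and the lambda genes lie on chromosome 16, with Iglc1 at chr16:19061752-19062071 and Iglc2 at chr16:19198536-19198852. RefSeq annotates these 9 genes as C regions. Jchain is an ordinary protein-coding gene at chr5:88519809-88527897. Ighg2b and Ighg2c are close copies, as are some but not all of the lambda constant genes. A low count of one such gene in a cell full of its relative is uncertain.

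After leaving out barcodes with under 200 genes or over 20% mitochondrial UMIs, 10063 of 11371 young and 5607 of 6729 old barcodes remained, with a median of 6385 and 9711 RNA UMIs per cell. Cells were placed in groups by the UMIs of fixed marker genes, none of them an immunoglobulin constant or variable gene. A B cell-like cell had UMIs of at least 4 of 14 B-lineage markers, and an antibody-secreting-like cell had at least 4 of 10 plasma cell markers and more of these than of the B-lineage markers. There were 350 young and 49 old B cell-like cells, and 2 young and 26 old antibody-secreting-like cells. Mesenchymal-like cells, the label of the sort and most of its cells, numbered 8428 and 4411. Other blood-like cells numbered 819 and 814 and were mainly erythroid-like (535 and 452) and neutrophil-like (113 and 221). Barcodes with markers of several groups formed a mixed group of 185 and 112 cells. A total of 25 barcodes occurred in both libraries, and those kept held 52 young and 26 old UMIs of the 10 genes. The cuts are limits on a range: 20 young and 0 old cells lay at exactly 4 B-lineage markers, and 15 and 3 had 3.

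The 10 genes together gave 8526 UMIs in kept young cells, 0.0105% of all RNA UMIs, and 601746 in kept old cells, 0.902%. In the young library 84.0% of these UMIs lay in B cell-like cells (95% Clopper-Pearson interval 83.2 to 84.8), and the 5 richest cells held 5.32%. In the old library 93.1% lay in the 26 antibody-secreting-like cells (93.0 to 93.2), and only 0.201% in B cell-like cells. The 5 richest old cells alone held 34.1%. Intervals here and below cover counting error only, since each age was 1 library, and UMIs of 1 cell are not independent of each other.

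**Figure D1:**
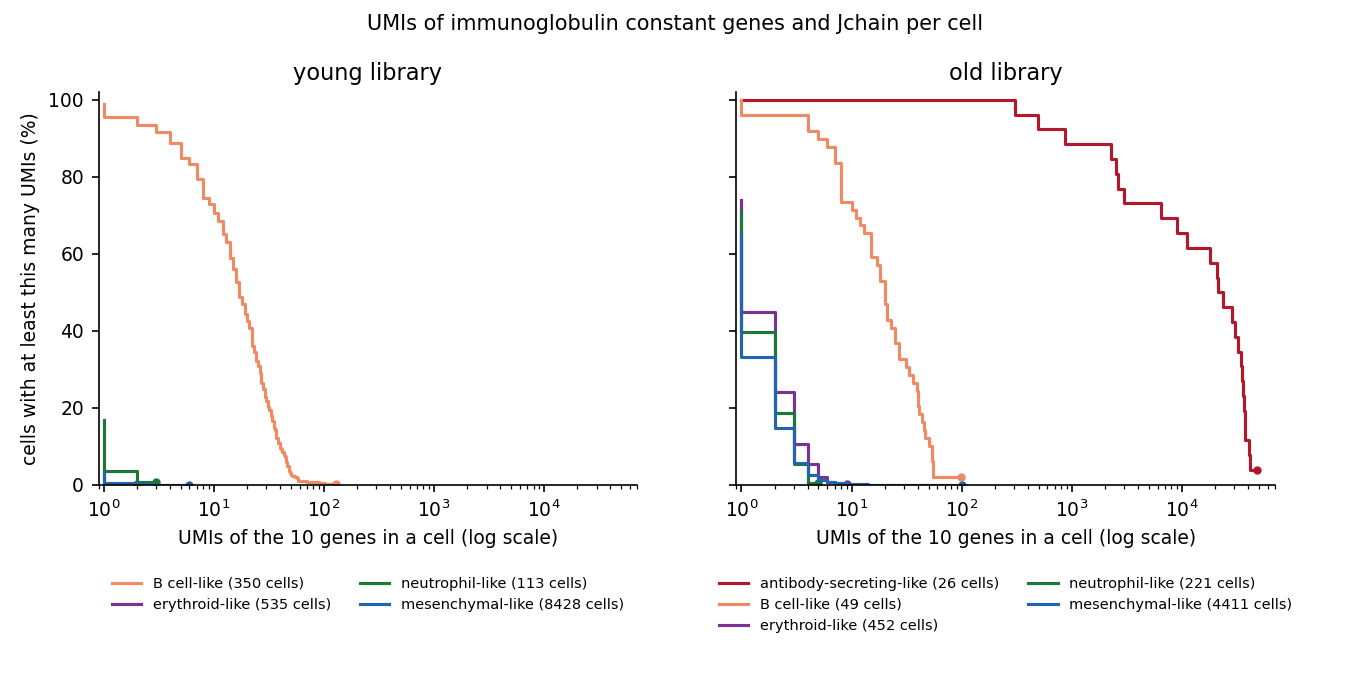
Cumulative distribution of the UMIs of the 10 genes per cell in the young (left) and old (right) library. The horizontal axis is the UMI count in a cell on a log scale, and the vertical axis is the percent of cells of a group with at least that count. Old antibody-secreting-like cells start at 306 UMIs and reach 47872, B cell-like cells of both libraries end at 129 or below, and mesenchymal-like and other blood cells lie near 1 UMI.

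B cell-like cells carried mostly Ighm and Igkc. The 350 young cells held 4283 Ighm UMIs, a mean of 12.2 per cell (exact Poisson interval 11.9 to 12.6), and 341 of them (97.4%) had at least 1. The 49 old cells held 835, a mean of 17.0 (15.9 to 18.2), and all 49 had at least 1. Igkc had a mean of 7.95 per young cell (7.66 to 8.25) and 6.92 per old cell (6.20 to 7.70). The median young cell held 11 Ighm and 5 Igkc UMIs and the median old cell 14 and 3, with the highest Igkc count at 113 and 39. Both chains were thus present in most B cell-like cells of each library.

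UMIs of the lambda genes Iglc1 and Iglc2 were rare in B cell-like cells of both libraries. At least 3 Igkc UMIs were found in 230 of 350 young and 26 of 49 old cells, while at least 3 lambda UMIs (Iglc1 plus Iglc2) were found in 1 cell of each library, and that cell also passed for Igkc. Iglc2 reached 8 UMIs in 1 young and 7 in 1 old cell. Iglc1 had 1 UMI over all young and 2 over all old B cell-like cells. These cell counts leave out Iglc3, a lambda gene outside the 10, with 23 UMIs in young and 4 in old B cell-like cells. Lambda variable genes (Iglv) gave 29 UMIs in 24 young and 4 UMIs in 3 old B cell-like cells.

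IgD was sparse. Ighd UMIs were found in 55 young (15.7%) and 14 old (28.6%) B cell-like cells, at a mean of 0.189 and 0.469 UMIs per cell, and 1 of the young and 0 of the old ones lacked Ighm. Switched isotypes gave 20 UMIs in 9 young cells, all of them Ighg2b and at most 5 in a cell, and 3 UMIs in 3 old cells. Jchain was at 0 in every B cell-like cell, which allows 3 counts in 350 young and 3 in 49 old cells.

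Igkc varied with the number of early B markers in a B cell-like cell. The early list was Igll1 and Vpreb1 (which also count as B-lineage markers), Vpreb2, Dntt, Rag1, Rag2, Il7r and Arpp21, genes of the surrogate light chain, of recombination and of precursor signalling. In young cells with 0 or 1 of these 8 markers the mean Igkc count was 11.6 (11.0 to 12.3, 120 cells), with 2 it was 8.26 (7.63 to 8.93, 77 cells), and with 3 or more it was 4.90 (4.56 to 5.27, 153 cells). These intervals do not overlap, but they cover counting error only. The 10 genes together had a variance of 12.2 times the mean in young B cell-like cells, a spread that the intervals leave out. Ighm had means of 12.3, 13.04 and 11.8 in the same cells, with intervals that overlap (11.7 to 12.9, 12.2 to 13.9 and 11.3 to 12.4). Old cells had Ighm means of 21.8 (17.4 to 26.8), 18.1 (15.1 to 21.6) and 16.3 (15.1 to 17.7) in that order, with overlapping intervals as well.

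The share of young cells with an Igkc UMI was 96.7% at 0 or 1 early markers and 56.2% at 3 or more (interval 48.0 to 64.2). Depth ran the other way, with medians of 4360 and 5153 RNA UMIs, and at an equal depth of 2000 UMIs the shares were 93.5% and 47.5%, with 9 and 15 shallower cells left out. Old cells had the same order, with an Igkc mean of 5.11 (4.41 to 5.88) in 38 cells with 3 or more early markers against 13.8 (10.4 to 17.9) in 4 cells with 0 or 1. Old B cell-like cells had a median of 4 early markers and young ones 2. The old cells were also deeper, at a median of 8028 against 4685 RNA UMIs, and marker numbers were not set to equal depth. The part of depth in this difference was not tested.

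**Figure D2:**
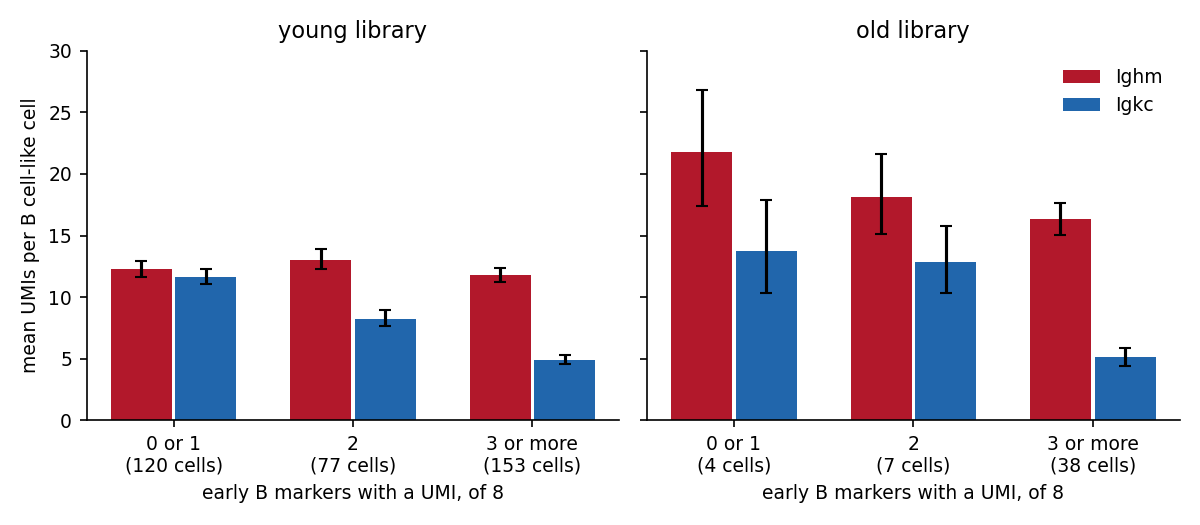
Mean UMIs of Ighm (red) and Igkc (blue) per B cell-like cell, by the number of early B markers with a UMI in the cell, in the young (left) and old (right) library. Error bars are exact 95% Poisson intervals. Igkc is lowest in cells with 3 or more early markers in both libraries, at 4.90 and 5.11, while Ighm lies between 11.8 and 13.04 in the young and goes from 21.8 to 16.3 in the old library.

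The surface level of CD24, a protein of developing B cells that did not enter the grouping, differed with Igkc content. Young B cell-like cells with no Igkc UMI had a median CD24 antibody count of 1404 (quartiles 954 and 2316, 75 cells), and those with at least 3 had 2781 (2077 and 3939, 230 cells). The old medians were 1729 (14 cells) and 2788 (26 cells). Cells with 1 or 2 Igkc UMIs had 1966 in the young (45 cells) and 1390 in the old library (9 cells), so the old median of that class was the lowest of the 3. The young cells without Igkc were also shallower, at a median of 3861 against 5543 RNA UMIs. The part of depth in this difference was not tested. Antibody-secreting-like cells of the old library had a median CD24 count of 163 (quartiles 74.8 and 401). That was above the 88 of old mesenchymal-like cells (59 and 136) and far under the 2100 of old B cell-like cells (1390 and 2940).

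The 26 antibody-secreting-like cells of the old library held 560181 UMIs of the 10 genes. The lowest cell had 306, the median cell 22511 and the highest 47872, and 23 cells had at least 2289. The 10 genes made up a median of 45.7% of a cell's RNA UMIs, from 2.31% to 64.8%. The 2 young cells of this label had 38 and 37 UMIs, with 4 B-lineage and 6 secreting markers each, no Jchain and amounts within the range of B cell-like cells. They met the rule by markers but did not have the immunoglobulin content of the old cells.

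Each of these old cells was dominated by 1 heavy and 1 light constant gene. Ighm was the top isotype in 23 of 26 cells, and the top isotype made up at least 99% of heavy chain UMIs in 25. The exception among isotype calls was a cell with 491 UMIs in all, whose 114 Ighg2b UMIs made 91.2%. A further cell held 6996 Ighg2b and only 2 Ighm UMIs, and another held 2198 Ighg2c, 1 Ighg2b and 2 Ighm UMIs. These 2 cells carried 96.1% of all Ighg2b and 99.1% of all Ighg2c UMIs of kept old cells. Igha and Ighg1 were at 0 in all 26 cells, and Ighd gave 1 UMI.

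Kappa and lambda were divided between the cells as well. In 23 cells Igkc made up at least 76.8% of light chain UMIs, ranging from 93 to 33824 UMIs, and Iglc1 did not exceed 15. In the other 3 cells Iglc1 held 30744, 28358 and 27173 UMIs and Igkc held 233, 159 and 297, at most 1.07% of their light chain. These 3 cells held 98.9% of all Iglc1 UMIs of kept old cells. Iglc2 behaved unlike Iglc1: it had 0 to 398 UMIs in the kappa cells, with a median of 91, and 176 to 247 in the lambda cells. Iglc3, a lambda gene outside the 10, likewise gave 619 UMIs in kappa and 68 in lambda cells.

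Jchain divided the antibody-secreting-like cells into 2 sets. A total of 12 cells held between 42 and 424 Jchain UMIs, and the other 14 held at most 2, with none between. Of the 11 cells with at least 30000 UMIs of the 10 genes, 4 had no Jchain UMI, while the cell with the highest Jchain count of 424 held 32060. The median content was 30147 UMIs in the 12 cells with at least 42 Jchain UMIs and 4713 in the 14 with at most 2. The low-Jchain cells thus included both rich and poor ones. The mitochondrial percent had medians of 1.55 and 1.52, but its range was wider in the 14 cells. It went from 0.259 to 5.71 in the 12 cells and from 0.0301 to 16.3 in the 14. The 26 cells held 98.98% of all Jchain UMIs of kept old cells.

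**Figure D3:**
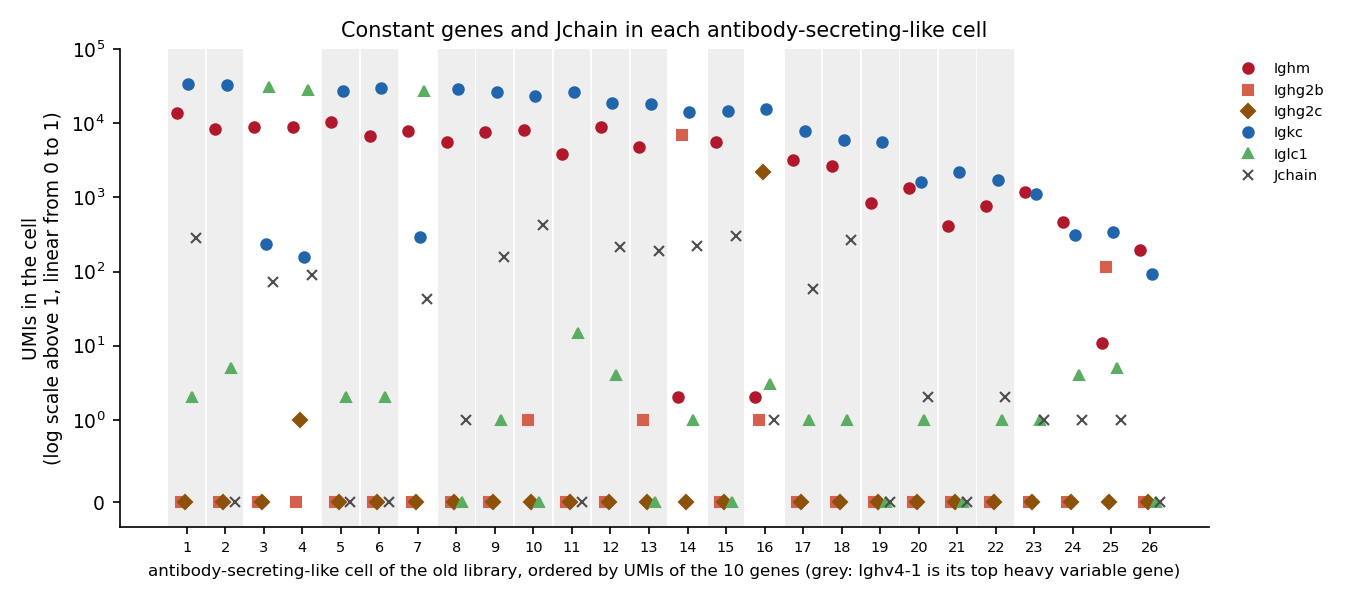
UMIs of Ighm, Ighg2b, Ighg2c, Igkc, Iglc1 and Jchain in each of the 26 antibody-secreting-like cells of the old library, ordered by their UMIs of the 10 genes. The vertical axis is logarithmic above 1 and linear from 0 to 1, and grey bands mark the 17 cells whose top heavy variable gene was Ighv4-1. Cells 3, 4 and 7 carry Iglc1 in place of Igkc, cells 14 and 16 carry Ighg2b and Ighg2c in place of Ighm, and Jchain lies either at 42 or above or at 2 or below.

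The variable genes used by these cells were few. Of 185 Ighv features, 160 Igkv and 3 Iglv, the old library gave 11007 UMIs, and the 3 highest genes were Ighv4-1 with 5401 (49.1%), Igkv1-88 with 2492 (22.6%) and Iglv1 with 1954 (17.8%). In 17 of 26 antibody-secreting-like cells the top heavy variable gene was Ighv4-1 and the top light one was Igkv1-88. In these cells Ighv4-1 gave 23 to 586 UMIs and at least 99.4% of the heavy variable UMIs. In the remaining 9 cells Ighv4-1 and Igkv1-88 were both at 0.

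All 17 of these cells had Ighm on top and used kappa, and together they held 72.0% of the UMIs of the class. The 3 lambda cells shared another pair, Ighv7-3 with 138 to 250 UMIs and Iglv1 with 395 to 524, and Ighv7-3 was at 0 in the other 23. The Ighg2b-rich cell had Ighv1-42 on top with 118 UMIs and the Ighg2c cell Ighv5-9-1 with 52. Iglv1 was also found at 1 to 115 UMIs in 21 of the 23 kappa cells. The counts name genes and not sequences, so whether the cells that share a pair descend from 1 rearrangement cannot be told from them.

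Ighv4-1 (chr12:113948284-113948577), Igkv1-88 (chr6:68862265-68863031) and Iglv1 (chr16:19085017-19085460) are annotated as V segments on the same build, and Ighv7-3 (chr12:114153180-114153644) as a V segment pseudogene. In the young library Ighv4-1 was at 0 in all 10063 kept cells. There the 311 variable gene UMIs were spread, the highest being Igkv1-35 with 50 (16.1%), Igkv1-135 with 29 and Igkv19-93 with 28. The 60 heavy variable UMIs of young B cell-like cells came from 38 genes, with at most 6.67% from 1 gene. Old B cell-like cells gave 20 heavy variable UMIs from 10 genes, 3 of them Ighv4-1 in 3 cells.

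The partner genes of the pathway, a list of 17, differed in how they were divided between the classes. The list shares 12 genes with the markers that set the B-lineage groups, so its levels are a description. Cd79a, the signalling subunit of the B cell receptor, had 1513 UMIs per 1000000 RNA UMIs (CPM) in young and 1587 in old B cell-like cells and 15.6 in antibody-secreting-like cells. Cd79b, its partner subunit, had 1078, 789 and 147 CPM in the same order. The surrogate light chain genes Igll1, Vpreb1 and Vpreb2 were at 0 of 1152001 RNA UMIs in the latter and had 464, 770 and 79.5 CPM in young B cell-like cells. Xbp1, the transcription factor of the secretory programme, had 1264 CPM in antibody-secreting-like and 62.6 in old B cell-like cells, and 137 in old mesenchymal-like cells. Derl3, of protein export from the endoplasmic reticulum, had 189 and 6.70 CPM in the same 2 classes. Mzb1, which aids antibody assembly, had 570 CPM in old B cell-like and 289 in antibody-secreting-like cells. The transcriptional regulators Pou2af1 (241 and 218) and Irf4 (89.4 and 93.7) were close in both on this scale. In antibody-secreting-like cells the 10 genes held 486268 CPM, which lowers the CPM of every other gene. By UMIs the order differed, as Mzb1 had 255 in the 49 old B cell-like and 333 in the 26 antibody-secreting-like cells. Pou2af1 had 108 and 251 UMIs in the same 2 classes, and Irf4 40 and 108. Syk, Btk and Blnk, which relay the receptor's signal, had 22.6, 9.55 and 49.5 CPM in antibody-secreting-like and 253, 103 and 366 in old B cell-like cells.

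The members' own levels were set against mesenchymal-like cells. Among 16000 genes with at least 10 UMIs in the 2 groups of each library, 14.8% were at least 2-fold higher in B cell-like than in mesenchymal-like cells in both libraries. Of the members 6 had the counts for it, and Ighm, Ighd, Igkc and Iglc2 passed. With the lower log2 difference of the 2 libraries taken for each gene, the median was 3.77 for the 6. It was −1.12 for all genes compared. Ighg2b and Jchain did not pass. Igha, Ighg1, Ighg2c and Iglc1 had too few counts. For partners the count was 14 of 16. The log2 difference of Ighm was 9.65 (young) and 5.56 (old), and that of Igkc 9.94 and 3.71.

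For antibody-secreting-like cells of the old library 6.74% of 16281 genes passed the same 2-fold limit. Of 9 members compared 8 passed, and Ighg1 did not. The log2 differences were 12.8 for Ighg2c, 12.4 for Iglc1, 12.3 for Igkc and Jchain, 11.4 for Ighm, 11.2 for Ighg2b and Iglc2, and 1.51 for Ighd, which rests on 1 UMI. The median of the 9 was 11.4 against −2.24 for all genes compared. Of 15 partners 13 passed. No test was possible in either comparison, with 1 library per age.

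Away from the B lineage the 10 genes were found at a low level in every group that held more than a few cells, and far more widely in the old library. Among young cells 254 of 8428 mesenchymal-like cells (3.01%, interval 2.66 to 3.40) held a UMI, at a mean of 0.0373 per cell. Among old ones 2871 of 4411 did (65.1%, 63.7 to 66.5), at a mean of 1.297. Median depths were 6330 and 9949 RNA UMIs. At an equal depth of 2000 UMIs the shares were 1.05% and 22.2%, with 540 and 360 shallower cells left out. Old erythroid-like cells, which should lack these genes, had a UMI in 73.9% (depth 18699), neutrophil-like cells in 71.0% (depth 4440) and megakaryocyte-like cells in 63.8% (depth 9878), and even barcodes with under 200 genes had one in 58.7% (depth 800). At 2000 UMIs the old shares were 16.1% in erythroid-like, 17.2% in megakaryocyte-like and 42.2% in neutrophil-like cells, with 22, 5 and 5 shallower cells left out. Old CPM was 117 (114 to 120) in mesenchymal-like, 67.1 (62.4 to 72.2) in erythroid-like, 70.8 (53.2 to 92.4) in megakaryocyte-like and 241 (215 to 270.2) in neutrophil-like cells. At equal depth mesenchymal-like cells of the old library thus stood above erythroid-like and below neutrophil-like cells, in the reverse order of their depths. Megakaryocyte-like cells did not follow that order. Their depth of 9878 was near the 9949 of mesenchymal-like cells, but their share was lower, at 17.2% against 22.2%. By mean UMIs per cell the order differed, with 1.63 in erythroid-like, 1.35 in neutrophil-like, 1.297 in mesenchymal-like and 1.15 in megakaryocyte-like cells. The parts of depth and of free RNA in these values were not tested.

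Young erythroid-like cells had a UMI in 3.55% (2.15 to 5.49), at a depth of 19165. Their mean of 0.0393 UMIs per cell was near the 0.0373 of young mesenchymal-like cells. At 2000 UMIs their share was 0.389%, with 14 shallower cells left out, and their CPM was 1.74 (1.07 to 2.65), against 1.05% and 5.13 (4.58 to 5.73) in young mesenchymal-like cells. Neutrophil-like cells stood higher, at 16.8% (10.4 to 25.0) with a depth of 2651, and 23 of their 24 UMIs were Ighm. The young B cell-like share was 98.9% and the old one 100%.

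Counts per cell outside the B lineage were mostly 1 or 2. Of the 2871 old mesenchymal-like cells with a UMI, 1407 held 1, 813 held 2, 635 held 3 to 9, 15 held 10 to 99 and 1 held 100. The highest were 100, 78 and 32, and these 3 cells held no UMI of a B-lineage marker. Among cells with up to 20 UMIs the variance was 1.65 times the mean, and over all 4411 cells 4.49 times.

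Deeper mesenchymal-like cells of the old library held more of these UMIs, but not in proportion to their depth. With the old cells in 4 equal bins by depth, with medians of 3301, 8361, 11704 and 18461 RNA UMIs, the mean counts were 0.876, 1.18, 1.42 and 1.72. The corresponding CPM fell from 258 to 81.9. Young cells had means of 0.0228, 0.0399, 0.0313 and 0.0551, and the CPM went from 8.45 in the shallowest to 4.10 in the deepest bin.

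**Figure D4:**
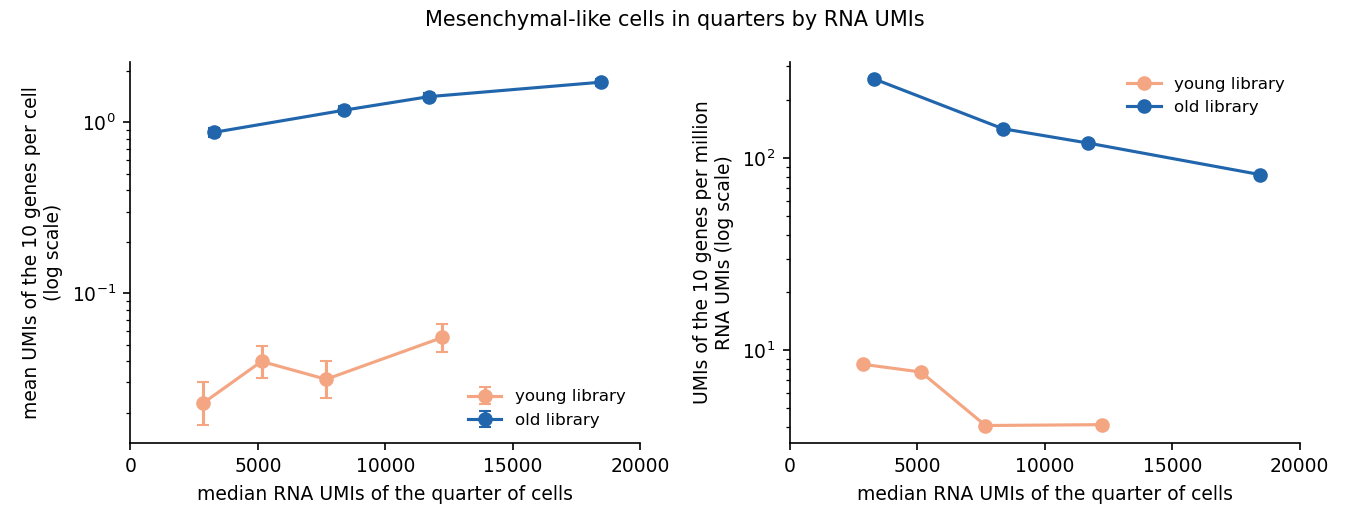
Mesenchymal-like cells in 4 equal bins by their RNA UMIs, young (orange) and old (blue). The left panel gives the mean UMIs of the 10 genes per cell with exact 95% Poisson intervals, and the right panel the CPM, both on a log vertical axis against the median RNA UMIs of the bin. The old mean rises from 0.876 to 1.72 while the CPM goes from 258 to 81.9.

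The makeup of the UMIs in old non-B cells was compared with that of the old B-lineage classes. Ighm made up 26.2% of the sum of Ighm and Igkc in antibody-secreting-like cells and 71.1% in B cell-like cells (68.4 to 73.7). It made up 40.6% in mesenchymal-like cells (39.2 to 42.0), 36.6% in erythroid-like cells (32.8 to 40.7), 52.3% in neutrophil-like cells (46.1 to 58.5) and 31.7% in barcodes under 200 genes (27.6 to 36.1). The values of all these groups lay between those of the 2 B-lineage classes, and that of neutrophil-like cells was above that of mesenchymal-like cells. Among young cells the share was 65.2% in mesenchymal-like (59.1 to 71.1) and 60.6% in B cell-like cells (59.5 to 61.8), with overlapping intervals.

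Iglc1 marked the 3 lambda cells in the old library. It made up 15.4% of the 10 genes' UMIs in antibody-secreting-like cells, 11.5% in mesenchymal-like, 15.4% in erythroid-like, 8.03% in neutrophil-like and 0.165% in B cell-like cells. Ighv4-1 gave 29 UMIs in 28 old mesenchymal-like cells, 87.9% of the 33 heavy variable UMIs found there. Young mesenchymal-like cells gave 4 heavy variable UMIs from 4 genes, none of them Ighv4-1.

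**Figure D5:**
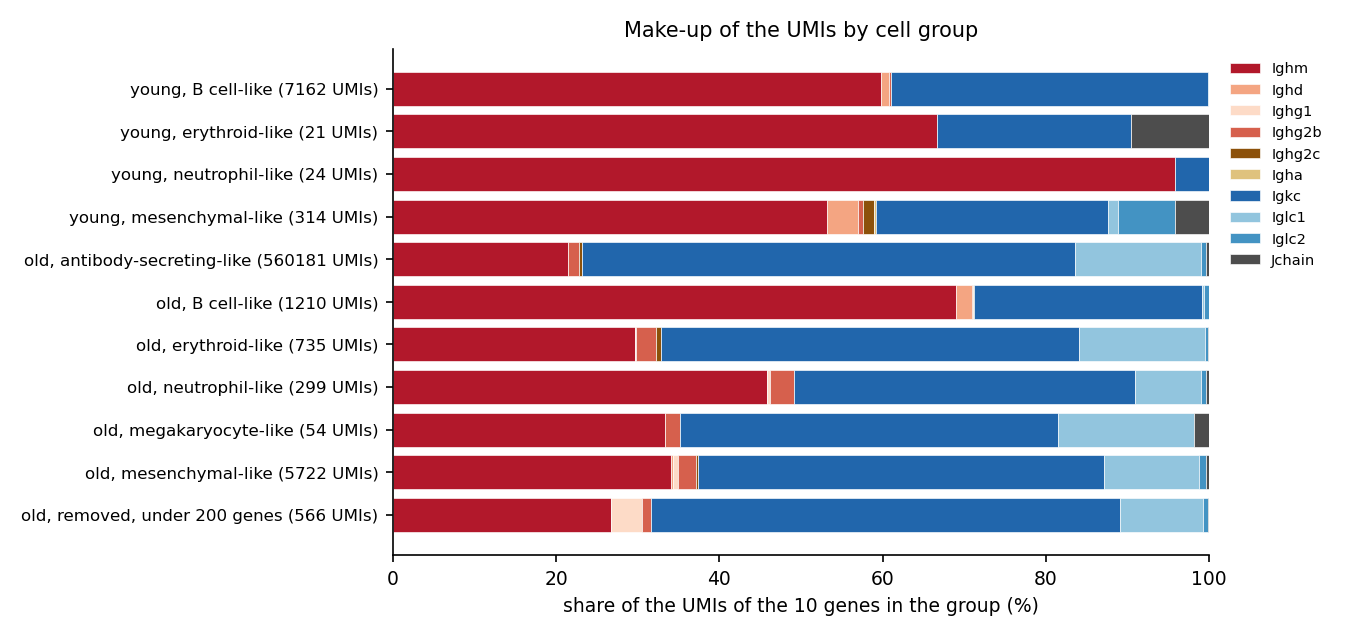
Share of each gene in the UMIs of the 10 genes, by cell group and library, in percent, with the number of UMIs behind each bar. Old mesenchymal-like, erythroid-like and megakaryocyte-like cells and old barcodes under 200 genes all show a block of Iglc1, as antibody-secreting-like cells do, and B cell-like cells of either library do not.

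Jchain in the young library was found only outside the B lineage. Its 15 UMIs lay in 13 kept cells, 13 of the UMIs in 12 mesenchymal-like cells and 2 in 1 erythroid-like cell, and none in 352 B-lineage-like cells. In old mesenchymal-like cells it gave 20 UMIs in 18 cells. With so few counts, Jchain in mesenchymal-like cells was 0.213 CPM in the young library (0.113 to 0.363) and 0.408 in the old library (0.249 to 0.630).

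Old and young were set side by side within groups of cells, as a description of 2 libraries. In mesenchymal-like cells the 10 genes stood at 5.13 CPM in the young and 117 CPM in the old library, a ratio of 22.7 (exact conditional interval 20.3 to 25.5). The ratio was 14.5 for Ighm (167 and 1947 UMIs), 39.9 for Igkc (89 and 2848), 206 for Iglc1 (4 and 660) and 79.2 for Ighg2b (2 and 127, interval 21.5 to 661). Ighg1 was at 0 in the young and 35 UMIs in the old library, at least 14.5-fold higher against the 3 counts that 0 allows over the group. Of 17695 genes with at least 10 UMIs in the group 3.97% were at least 2-fold higher in the old library, and of 9 members compared 7 were. Ighd (ratio 1.56, 0.681 to 3.65) and Jchain (1.92, 0.908 to 4.196) were not. The median log2 ratio of the 9 members was 3.86 and that of all genes 0.0108. Of the 7, Ighg1, Ighg2b, Iglc1 and Ighg2c had 0, 2, 4 and 4 young UMIs. These genes met the limit of 10 UMIs only through the old library, where they are high. The members were also chosen after their values were seen, so the 7 of 9 is a description and not a test. Of 15 partners compared 1 passed, Prdm1, a transcription factor of plasma cells.

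Genes of other blood cells did not move together between the libraries. In mesenchymal-like cells the red cell genes Hbb-bs and Hba-a1 had old to young ratios of 0.223 and 0.160. The neutrophil genes S100a8, S100a9, Camp and Ngp had 3.74, 3.48, 2.18 and 8.30, and the platelet genes Pf4 and Ppbp 0.831 and 0.820. The ratio of 22.7 for the 10 genes was above all 8 of these. The libraries held 2 and 26 antibody-secreting-like cells, and the part of that number in these values was not tested. Age and library cannot be told apart.

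In B cell-like cells the 10 genes stood at 3674 CPM in the young and 2704 CPM in the old library, a ratio of 0.736 (0.692 to 0.782), whereas the mean per cell was higher in the old library, at 24.7 (23.3 to 26.1) against 20.5 (20.0 to 20.9). The old cells were deeper, at a median of 8028 against 4685 RNA UMIs, and the direction thus depended on the scale. Igkc was lower in the old library on both, at 758 against 1427 CPM and 6.92 against 7.95 per cell. By number of early markers the old Igkc mean was not lower. It was 13.8 (10.4 to 17.9) against 11.6 (11.0 to 12.3) at 0 or 1 markers, and 12.9 (10.3 to 15.8) against 8.26 (7.63 to 8.93) at 2. At 3 or more it was 5.11 (4.41 to 5.88) against 4.90 (4.56 to 5.27). The intervals were apart only at 2 markers, where the old mean rests on 7 cells. They cover counting error only, and the 10 genes had a variance of 15.0 times the mean in old B cell-like cells. Whether the libraries differ there was not tested.

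The genes whose pattern was most like that of 3 of the members were sought among all genes outside the immunoglobulin genes and markers, by Pearson's r of log2(CPM + 1) over 25 profiles (each cell group of each library, several of them from 1 or 2 cells). For Ighm these were Ly6d (r = 0.72), Gm42031 (0.72) and Gm30211 (0.71), and for Igkc Gm42031 (0.84), Gm30211 (0.76) and Hist2h3c2 (0.76). For Jchain they were H2-M10.1, Rhox5 and Olfr193 (each 0.99), where the value rests on the old antibody-secreting-like profile. Profiles of 1 library are not independent of each other, so these are descriptions.

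Of the other constant genes, Ighg3 had no UMI in the B-lineage or mesenchymal-like cells of either library, Ighe had 2 in old mesenchymal-like cells, and Iglc4 had 1 in an antibody-secreting-like cell. Iglc3 had 23 UMIs in young and 4 in old B cell-like cells and 687 in antibody-secreting-like cells.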

How the data were processed

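CITE-seq libraries of young and old INK-ATTAC mice, 1 per age, were analysed. The authors deposited raw UMI counts per gene and cell, with counts of 1 CD24 antibody, written by Cell Ranger 6.1.1 per the file headers (the paper gives an older version) on build mm10 per the submitters' processing notes, which also name R 4.0.3 and Seurat 4.0. No normalization had been applied. The deposited barcodes had been called as cells, so empty droplets were not analysed here, and a 3′ library reads transcript ends, which limits variable gene counts. Depth was 82675434 young and 68580402 old RNA UMIs.

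Cells with under 200 genes or over 20% mitochondrial UMIs were removed, as in the study. Groups were set by distinct markers with a UMI (at least 4). Mesenchymal-like cells also needed at least 1% of RNA UMIs, the 10 genes left out, from mesenchymal markers. The members and lists were chosen with earlier results of these data known, and the cuts after seeing marker distributions. No doublet caller was used in the values reported, and Scrublet (scanpy 1.11.5) served as an alternative, calling 2.65% of young and 0.803% of old cells. Named genes were the 10 members, Ighg3, Ighe, Iglc3, Iglc4, the 17 partners, 8 free-RNA genes, the 3 top variable genes per library and the 3 most alike genes. Chosen after seeing values were Ighv7-3, Ighv1-42, Ighv5-9-1 and the per-cell descriptions. CPM was per 1000000 RNA UMIs. Intervals were exact at 95% (SciPy 1.17.1). A count of 0 was taken to allow 3 counts. Shares at 2000 UMIs are expectations under thinning. Coordinates are from RefSeq on the same build. Fold calls, intervals and thinning were tested on simulated data. The values of 1 partner gene are not reported here.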

Additional observations from a re-analysis of the deposited data

Results flagged for a closer look

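The old to young ratio went opposite ways in mesenchymal-like and B cell-like cells. For the 10 genes together it was 22.7 in mesenchymal-like and 0.736 in B cell-like cells, for Ighm 14.5 and 0.849, and for Igkc 39.9 and 0.531, all on the CPM scale. With 1 library per age the difference between the groups was not tested. Per cell, the B cell-like ratio was 1.21 for the 10 genes, 1.39 for Ighm and 0.870 for Igkc, so on that scale Igkc alone of these kept the opposite directions.

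Signal of the 10 genes was also present in barcodes that the filter removed. In the old library 8 removed barcodes held at least 20 UMIs, against 0 in the young library, with the highest at 719 UMIs, of which 375 were Ighm and 334 Igkc, at 23.2% mitochondrial UMIs and with 16 UMIs of Ighv4-1. Ighg1 gave 44 UMIs in 13 removed old barcodes and 40 in 39 kept ones, and none in the young library. Of the 44, 17 lay in a barcode with 82.1% mitochondrial UMIs, 32 Igkc and 0 Ighm UMIs, and 15 in another with 61.7%, 10 Igkc and 0 Ighm. No kept cell held more than 2.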

How the results depend on the processing

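Of 101 values recomputed under alternatives, 73 stayed within the counting interval of the reported value (or 1.5 times of a count), 27 moved and 1 reversed, and the cause was not tested. The reversed one was the B cell-like old to young ratio, 1.21 by UMIs per cell, where the mesenchymal-like ratio was 34.8. A mitochondrial limit of 10% gave the old library 25086 UMIs per antibody-secreting-like cell (494396 CPM), 26.4 per B cell-like cell, 112 CPM in mesenchymal-like cells and 93.5% of UMIs in B-lineage-like cells. That last share was 90.0% in the young library without Scrublet doublets. With 1 marker more it was 81.9% (young) and 91.8% (old), with 22964 UMIs per antibody-secreting-like cell, and with 1 fewer 86.4% in the young library, with 20.0 UMIs per B cell-like cell. It was 89.8% in the old library without its 5 richest cells. Without immunoglobulin genes in the total, antibody-secreting-like cells had 964283 CPM. Thinning to 2000 UMIs gave shares with a UMI of 96.8% (young B cell-like), 1.05% and 22.2% (young and old mesenchymal-like), and a minimum of 2 UMIs gave 95.4%, 0.403% and 33.2%. Without a low-count filter 1286 instead of 702 genes, and 8 instead of 7 members, were 2-fold higher in old mesenchymal-like cells. Alternatives added after seeing the data gave 1.25 UMIs and 112 CPM for old mesenchymal-like cells without those over 20 UMIs, 93.8% and 98.8% in B-lineage-like cells without mixed and unassigned cells, and 24283 UMIs (498226 CPM) for antibody-secreting-like cells of at least 1000 UMIs. No paired analysis was possible because each age had 1 library. Counts of the switched isotypes, lambda genes and Jchain in B cell-like cells were at or near 0, and the part of depth in this was not tested.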

Other observations

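Several kept barcodes outside the B-lineage groups were rich in the 10 genes. In the old library a barcode of the mixed group held 31561 UMIs, with 25835 Igkc, 5615 Ighm, 407 Ighv4-1 and 243 Igkv1-88, together with 9 secreting markers and 1.13% mesenchymal marker UMIs, just above the cut of 1%. An unassigned old barcode held 1310 UMIs of the 10 genes among 2294 RNA UMIs, with 979 Igkc, 330 Ighm, 273 genes, no B-lineage or secreting marker and 19.7% mitochondrial UMIs. In the young library 18 mixed barcodes held at least 20 UMIs, the highest 62, in amounts like those of B cell-like cells.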
